A study of Picea abies with 48 samples.

Results

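The comparison described here is that of scion with intact hypocotyl in *Picea abies* (Norway spruce) at 28 days after grafting (DAG). Its members are the 3 scion libraries and the 3 intact libraries labelled with that day, 6 of the 48 libraries of the series, which also holds earlier days and the rootstock side of each graft. Seedlings of wild-type genotype from the seed source FP-96 Skogsgård were cut through the hypocotyl at 10 days of age or shortly after, and a scion and a rootstock from different plants were held together in a collar. Scion libraries were made from about 1 mm of hypocotyl above the junction. Intact libraries were made from 2 mm of hypocotyl of plants of the same seed source that had not been cut. Each library pooled 5 plants, so the spread between replicates is a spread between pools. Wounding, grafting and position next to the junction come together in the scion and cannot be told apart. Fewer cells of a type and less RNA per cell cannot be told apart either.

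A graft heals through wound signalling, the formation of callus from dividing cells, the adhesion of the cut walls and the differentiation of new phloem and xylem across the junction. Wall enzymes act at several of these steps, because pectin between cells is remodelled when surfaces attach, and cellulose, hemicellulose and lignin are laid down when vascular cells mature. In conifers, wounding is also known to raise chitinases, thaumatin-like proteins, peroxidases and terpenoid enzymes. At 28 DAG, the last day sampled, the question was which of these genes still differed from intact plants.

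Counted reads per library were 15889014 to 21751155 in scion and 16884105 to 19545930 in intact plants. The 10 most abundant genes took 5.03% to 5.51% of the reads in scion and 6.76% to 7.98% in intact plants. Replicates of a group differed by 4.12 to 10.6 times the variance of counting alone, so no library was a second copy of another. Scion replicate 1 stood apart: 176 genes were more than 4-fold above both of its partners there, against 39 and 32 genes for scion replicates 2 and 3. Rootstock replicate 1 of the same day stood apart further, with 440 such genes. Scion results that moved most without replicate 1 are therefore given with and without it. Genes more than 4-fold below both partners numbered 77, 43 and 138 in scion replicates 1, 2 and 3. In intact replicates 1, 2 and 3 they numbered 96, 128 and 65. The vascular markers *PaAPL-like* (phloem) and *PaVND4-like* (xylem) were present in all 6 libraries, with at least 61.6 and 398 normalized reads. No markers of needle, cortex or epidermis were available.

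In scion, 3021 of 38436 tested genes were higher than in intact plants (7.86%) and 1132 were lower (2.95%). A gene is called at a Benjamini–Hochberg adjusted *p* under 0.05 in edgeR together with a change of more than 1 on the log2 scale in either direction, and every log2 value is scion over intact unless stated. Rises made up 72.7% of the calls, while the median log2 fold change of all tested genes was 0.05. Of the called genes, 2886 were higher in all 3 scion libraries than in any intact library and 1097 were lower in all 3. Over all tested genes the corresponding shares of non-overlapping genes were 24.5% and 19.1%. Rises of more than 4 on the log2 scale were seen in 392 genes and falls of that size in 119 genes. Without scion replicate 1 the counts were 2715 higher and 1163 lower. Leaving out intact replicate 2 moved both counts further down, to 2578 higher and 964 lower.

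Among the 16 spruce genes with a name of the form *PaERF115-like*, 7 were higher in scion and none was lower by edgeR or DESeq2. Of all tested genes, 7.86% were higher and 2.95% lower. The study picked these genes largely by their response to grafting in these same samples, so the count is no independent evidence of direction. The strongest was *PaERF115-like* (MA_10274g0010), related to an *Arabidopsis* AP2/ERF factor known from wounding and the renewal of lost cells. It had 267, 264 and 308 normalized reads in scion, against 9.09, 0.91 and 3.48 in intact plants. The difference was 5.98 ± 0.32 on the log2 scale (s.e., adjusted *p* = 1.07e-16), and each scion library lay far above each intact one. *PaMYB123-like* (MA_10048467g0010), a MYB factor whose *Arabidopsis* relative controls proanthocyanidins in the seed coat, had 88.3, 84.9 and 63.9 reads in scion, against 3.03, 0 and 0.87 in intact plants. The difference was 5.88 ± 0.53 on the same scale (adjusted *p* = 1.72e-11).

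The other wound and callus markers did not pass. *PaWIND1-like* (MA_98464g0010), related to an *Arabidopsis* factor that drives callus formation at wounds, had 23.1, 18.4 and 8.52 reads in scion and 34.4, 5.46 and 9.57 in intact plants. These ranges overlapped throughout (0.09 ± 0.75, adjusted *p* = 0.948), and the sign turned without scion replicate 1, intact replicate 2 or intact replicate 3. *PaWOX13-like* (MA_116716g0010), related to a homeobox factor of callus growth and organ rejoining in *Arabidopsis*, had 55.2, 68.9 and 55.4 reads in scion, against 40.4, 19.1 and 33.9 in intact plants. All 3 scion libraries were above all 3 intact ones, but the value of 0.97 ± 0.23 (adjusted *p* = 0.00101) stayed just under the fold threshold. It passed that threshold without intact replicate 1 (1.19), without intact replicate 3 (1.04) or without scion replicate 3 (1.02).

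Of the vascular markers, the 1 phloem gene passed, as did 1 of 10 tested xylem genes, *PaPRX66-like*. *PaAPL-like* (MA_201937g0010), related to the MYB factor that sets phloem identity in *Arabidopsis*, had 158, 177 and 174 reads in scion, against 61.6, 76.5 and 63.5 in intact plants (1.34 ± 0.17, adjusted *p* = 6.05e-08). *PaVND4-like* (MA_6777g0010), related to NAC factors of vessel formation, had 640, 702 and 625 reads in scion, against 504, 398 and 540 in intact plants. That is a difference of 0.46 ± 0.13 (adjusted *p* = 0.00739), with groups that did not overlap but a size below the fold threshold. *PaPRX66-like* (MA_10431507g0020), a class III peroxidase that the study relates to xylem, had 66.2, 104 and 43.7 reads in scion, against 14.1, 6.37 and 19.1 in intact plants (2.46 ± 0.48, adjusted *p* = 1.31e-04). The other tested xylem markers, 7 genes described as laccase-17 and a metacaspase 9, were not called. The most abundant laccase-17-like gene (MA_205016g0010) averaged 793 reads in scion and 1183 in intact plants (−0.57 ± 0.18, adjusted *p* = 0.0127). *PaCDKB2;2-like* (MA_920994g0010), a mitotic cyclin-dependent kinase, averaged 503 ± 30.5 reads in scion and 350 ± 44.3 in intact plants (SD, n = 3 each), a difference of 0.54 ± 0.12 (adjusted *p* = 4.66e-04).

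Among the named wall genes, *PaPECTIN LYASE-like* (MA_6752784g0010), whose enzyme class cleaves the pectin backbone, had 136, 140 and 150 reads in scion, against 19.2, 9.10 and 23.5 in intact plants (3.04 ± 0.36, adjusted *p* = 2.93e-08). *PaKOR1-like* (MA_69345g0010), a membrane endo-β-1,4-glucanase related to one needed for cellulose synthesis in *Arabidopsis*, had 85.3, 119 and 157 reads in scion, against 38.4, 37.3 and 67.9 in intact plants (1.32 ± 0.27, adjusted *p* = 2.28e-04). Neither gene had overlapping groups. *PaPME5-like* (MA_10267810g0010), a pectin methyl esterase, averaged 145 ± 8.54 reads in scion and 134 ± 3.68 in intact plants (0.12 ± 0.18, adjusted *p* = 0.646). *PaLAC1-like* (MA_75861g0010), a laccase, had 16.1, 8.42 and 4.26 reads in scion and 7.07, 8.19 and 35.7 in intact plants, where replicate 3 alone was high (−0.85 ± 0.97, adjusted *p* = 0.556).

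*PaMYB4-like* (MA_316475g0010), related to an *Arabidopsis* repressor of phenylpropanoid genes, had 217, 176 and 165 reads in scion, against 130, 30.0 and 62.7 in intact plants (1.35 ± 0.31, adjusted *p* = 7.40e-04). Its call was lost without intact replicate 2. *PaPAT1-like* (MA_10426489g0020), a GRAS family factor, had 156, 129 and 161 reads in scion, against 98.0, 71.9 and 86.1 in intact plants, a difference of 0.80 ± 0.17 (adjusted *p* = 2.08e-04) below the fold threshold. *PaWIP4-like*, a zinc-finger factor, was at 0.92 ± 0.13 with groups that did not overlap, and *PaLRP1-like*, related to a gene of lateral root primordia, was at 0.71 ± 0.21 with groups that did.

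**Figure D1:**
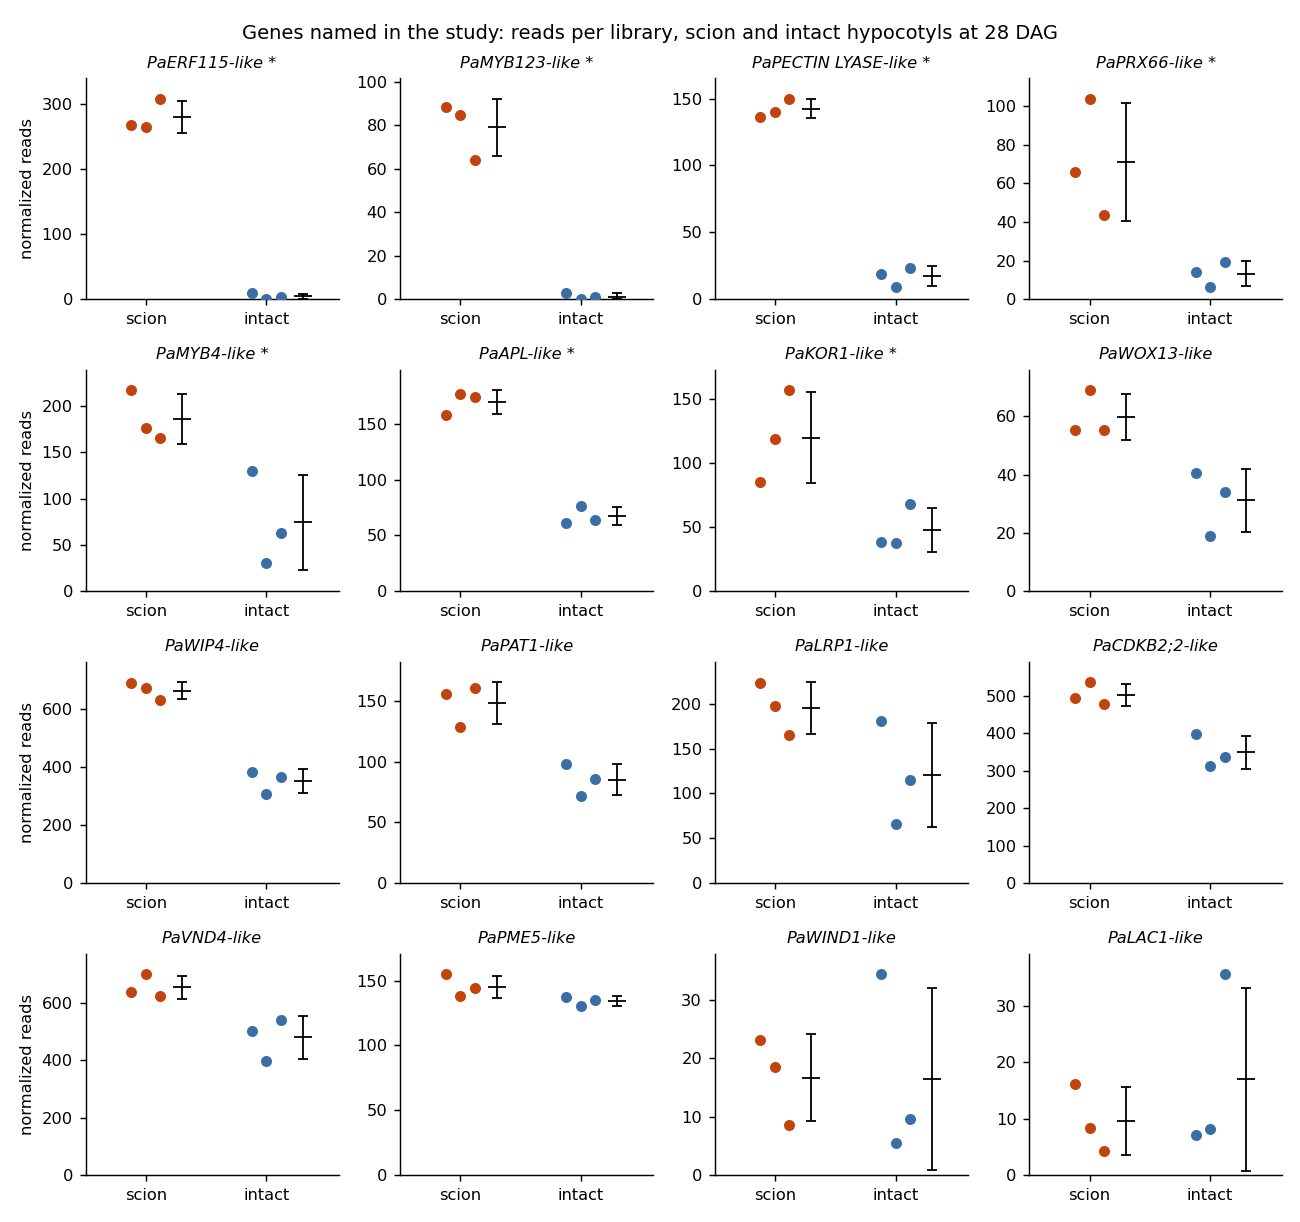
Normalized reads per library (y axis, linear, from 0) of the 16 spruce genes with *Pa* names, in 3 scion and 3 intact libraries at 28 DAG, with the mean ± SD beside each group and an asterisk on the 7 called genes. *PaERF115-like* lies at 264 to 308 reads in scion and at most 9.09 in intact plants, while the groups of *PaWIND1-like*, *PaLAC1-like* and *PaLRP1-like* overlap.

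The largest rises among genes with a described protein were led by thaumatins, a protease inhibitor and a bHLH factor. A gene described as a FER-like transcription factor (MA_10431811g0010), related to a regulator of iron uptake in *Arabidopsis* roots, had 143, 159 and 152 normalized reads in scion and none in any intact library. Its 493 scion reads against a floor of 3 reads over the 3 intact libraries place it at least 164-fold higher in scion. A thaumatin (MA_10211971g0010), of the family of pathogenesis-related (PR) 5 antifungal proteins, had 149, 457 and 8.52 reads in scion and none in intact plants, which is at least 251-fold higher by the same floor and at least 87-fold without scion replicate 2. A second thaumatin (MA_10429511g0010) had 354, 1094 and 11.7 reads in scion, against 0, 1.82 and 0 in intact plants. Its ratio was 896 with an exact binomial 95% interval of 248 to 7401, which covers counting error only, and 304 without scion replicate 2. Both thaumatins were highest in scion replicate 2 and lowest in scion replicate 3, and near-identical copies could share their reads. A serine type endopeptidase inhibitor (MA_10436108g0010) had 47.2, 268 and 50.1 reads in scion and none in intact plants, at least 148-fold higher, or at least 52.4-fold without scion replicate 2. These omissions of single scion libraries from the bounds and ratios were added after the data were seen.

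Of the other large rises, some were even across scion libraries and some came mainly from replicate 1. The patatins MA_10430702g0010 and MA_125844g0010, of a family of lipid acyl hydrolases, had 504, 324 and 704 reads and 526, 343 and 787 reads in scion, with at most 6.09 in any intact library. Their log2 fold changes were 7.63 ± 1.09 and 6.69 ± 0.82 (adjusted *p* = 3.69e-06 and 7.70e-08), and the closely matching profiles could come from shared reads. The gene described as pathogenesis-related 5-like (MA_19953g0020) had 8457, 1617 and 146 reads in scion, against 12.1, 24.6 and 18.3 in intact plants (7.52 ± 1.57, adjusted *p* = 3.35e-04). Without scion replicate 1 it was at 5.57 (adjusted *p* = 0.00594). A HOTHEAD-like gene (MA_10307468g0010), related to a gene that keeps epidermal organs from fusing in *Arabidopsis*, had 849, 28.3 and 8.52 reads in scion, against 1.01, 3.64 and 0 in intact plants. Without scion replicate 1 it was at 3.54 (adjusted *p* = 0.266). A sesquiterpene synthase (MA_10435706g0010), of a class of terpenoid enzymes, had 836, 42.1 and 170 reads in scion, against 1.01, 0.91 and 5.22 in intact plants, and lost its call without that library (5.28, adjusted *p* = 0.0697). A *PR10* gene (MA_135328g0010) had 701, 181 and 140 reads in scion, against 7.07, 0 and 0.87 in intact plants, and kept its call (5.94, adjusted *p* = 6.80e-04). When only the scion and intact libraries of 28 DAG were fitted, calls were lost for the thaumatin MA_10429511g0010 (adjusted *p* = 0.0804), the protease inhibitor MA_10436108g0010 (0.153), the PR5-like gene MA_19953g0020 (0.0669) and the sesquiterpene synthase MA_10435706g0010 (0.0736), with log2 values of 7.04 to 10.06. The thaumatin MA_10211971g0010 and the HOTHEAD-like gene MA_10307468g0010 gave no value in that fit.

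Among genes with a described protein and at least 50 normalized reads on average, the largest falls included genes of surface lipids, flavonoids and pectin esterases. The gene described as BAHD acyltransferase DCR (MA_10429815g0020), whose *Arabidopsis* relative is needed for cutin, had 102, 14.5 and 44.7 reads in scion, against 2567, 4807 and 5193 in intact plants. It fell by 6.33 on the log2 scale (s.e. 0.46, adjusted *p* = 1.73e-12). Fatty acyl reductase 2 (MA_10430156g0010), of a family that makes fatty alcohols, had 36.1, 14.5 and 16 reads in scion, against 384, 487 and 677 in intact plants (−4.55 ± 0.52, adjusted *p* = 2.38e-08). Flavonoid 3′-monooxygenase (MA_10434848g0010), which hydroxylates flavonoids, had 115, 29.1 and 110 reads in scion, against 320, 1554 and 1463 in intact plants (−3.75 ± 0.45, adjusted *p* = 5.70e-08). Intact replicate 1 was the lowest of its group in all 3 genes. It was also lowest, at 405 against 1863 and 1659 reads, for the premnaspirodiene oxygenase-like gene (MA_10427520g0010), a terpenoid cytochrome P450 by description, which had 113, 19.1 and 144 reads in scion.

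Flavonol synthases MA_10435737g0040, MA_10435737g0010 and MA_10435737g0020 are 3 models numbered on the same scaffold, so that reads could be split among copies. They were at −4.44 ± 0.62, −3.78 ± 0.52 and −3.61 ± 0.47, each with 35.1 or fewer reads in every scion library and 62.7 or more in every intact library. The pectinesterase-like gene MA_648837g0010 had 1.00, 3.83 and 4.26 reads in scion, against 151, 118 and 115 in intact plants (−5.31 ± 0.66, adjusted *p* = 7.58e-08). The pectinesterase/pectinesterase inhibitor 17 gene (MA_53377g0010) had 4.01, 1.53 and 8.52 reads in scion, against 122, 105 and 113 in intact plants (−4.65 ± 0.66, adjusted *p* = 8.65e-07). Carboxylesterase 15 (MA_10435233g0020) was at −4.15 ± 0.45. Beyond described proteins, MA_476450g0010 had 5.02, 0.765 and 2.13 reads in scion, against 485, 1635 and 973 in intact plants (−8.62 ± 0.80, adjusted *p* = 4.29e-10). MA_699468g0010 had 1 read in the 3 scion libraries together and 572 in the 3 intact libraries.

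**Figure D2:**
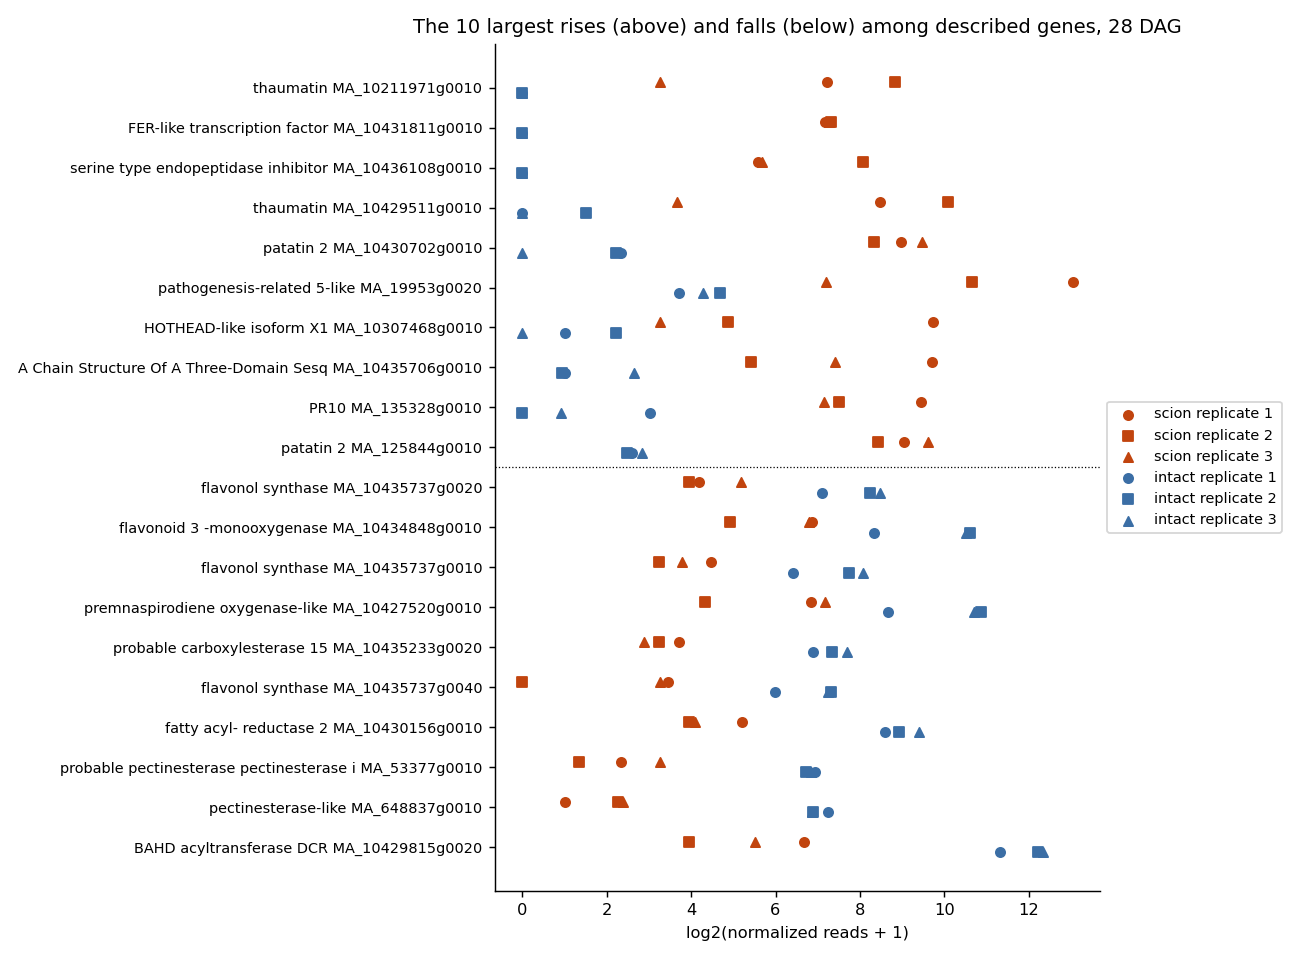
log2(normalized reads + 1) per library (x axis) of the 10 largest rises and the 10 largest falls among called genes with a described protein, at least 50 normalized reads on average and groups that do not overlap. Marker shape gives the replicate, and scion replicate 1 (circles) is the highest scion point for the PR5-like, HOTHEAD-like, sesquiterpene synthase and *PR10* genes, whereas the FER-like gene is near 150 reads in each scion library.

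Gene lists were made from the study's tables, either from its own list of wall enzymes or by keyword in the descriptions. The tables that hold descriptions are mostly genes that responded early or to hormones, and 19.6% of the 3555 tested genes with a description were higher in scion and 3.38% lower, with a median of 0.34. Each list is read beside these shares as well as beside the 7.86% and 2.95% of all genes. No list was tested as a set. For lists with no fall called by edgeR, 0 to 3 members were lower at an unadjusted *p* under 0.05, and DESeq2 called a fall in 1 of these lists, that of sugar genes.

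Many enzymes that cut pectin and β-1,4-glucan were higher in scion. Of 37 pectate and pectin lyases, all tested, 25 were higher and none lower, with a median of 1.44 and 37 members above 0. A pectate lyase (MA_101171g0010) had 60.2, 44.4 and 46.9 reads in scion, against 0, 1.82 and 0 in intact plants. Pectate lyase 8 (MA_956526g0010) had 41.2, 42.1 and 41.5 reads in scion, against 1.01, 1.82 and 1.74 in intact plants (4.66 ± 0.41, adjusted *p* = 7.64e-12). Pectate lyase 18 (MA_10205415g0010) had 269, 232 and 247 reads in scion, against 26.3, 3.64 and 18.3 in intact plants (3.98 ± 0.38, adjusted *p* = 8.64e-10). Summed over the list, normalized reads were 23585, 26522 and 23378 in scion, against 13620, 11498 and 12858 in intact plants, so the groups did not overlap.

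Of 22 tested β-1,4-glucanases (23 listed), 13 were higher and none lower, with a median of 1.28. Summed normalized reads of the list were 44794, 46350 and 45685 in scion, against 33863, 33548 and 33765 in intact plants. That relative difference is far smaller than in the 2 members named next. Endoglucanase 17 (MA_827790g0010) had 135, 160 and 120 reads in scion, against 2.02, 1.82 and 0 in intact plants (6.69 ± 0.47, adjusted *p* = 1.26e-13). Endoglucanase 3 (MA_8394675g0010) had 91.3, 103 and 47.9 reads in scion, against 2.02, 0 and 0.87 in intact plants. The counts of both enzyme lists without scion replicate 1 were 20 lyases and 13 glucanases. The wall growth list of expansins, which loosen walls, and of xyloglucan, cellulose synthase, fasciclin and polygalacturonase genes had 19 of 59 tested members higher and 3 lower, with a median of 0.78, the falls being 1 without scion replicate 1 or 3. Expansin-B3-like (MA_166764g0010) had 89.3, 112 and 108 reads in scion, against 1.01, 2.73 and 0.87 in intact plants (5.97 ± 0.74, adjusted *p* = 9.74e-08). The expansin Os-EXPA2 (MA_104065g0020) had 418, 466 and 474 reads in scion, against 133, 89.2 and 119 in intact plants (2.00 ± 0.18, adjusted *p* = 8.15e-12). Cellulose synthase H1 (MA_124460g0010) was lower at −2.02 ± 0.76, a call that 4 of the 6 single-library omissions removed.

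Pectin methyl esterases and laccases moved both ways. Of 54 tested pectin methyl esterases, which alter how stiff and how cleavable pectin is, 10 were higher (18.5%) and 5 lower (9.26%), with a median of 0.54. Described genes in general were at 19.6% and 3.38%, so the rises were no more frequent here. Without scion replicate 1 the counts of rises and falls were 5 and 3. The count of rises was also 5 without intact replicate 2 and 6 without scion replicate 2, and that of falls was 3 without intact replicate 1. The pectinesterases named above are 2 of the 5. Of 61 tested laccases, 14 were higher and 10 lower, with a median of 0.08. The largest of their changes were falls: the laccase MA_14717g0010 had 42.2, 35.2 and 23.4 reads in scion, against 371, 314 and 320 in intact plants (−3.29 ± 0.49, adjusted *p* = 2.55e-06). The laccases MA_21316g0010 and MA_170004g0010 had at most 2.13 reads in any scion library and at least 19.2 in each intact one. The 14 rises became 7 without intact replicate 2, 8 without scion replicate 1 and 9 without intact replicate 3, while the falls stayed at 9 or 10. In the fit of these 2 groups alone, 8 of 45 tested laccases were higher and 8 lower.

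Lignin, lignan and peroxidase genes differed in how many were called. Of 40 tested lignin pathway genes, 5 were higher and none lower (median 0.24), a share of 12.5%, and 8 were higher without intact replicate 1. Trans-cinnamate 4-monooxygenase (MA_10435536g0010), an early enzyme of the phenylpropanoid pathway, had 648, 112 and 368 reads in scion, against 10.1, 6.37 and 70.5 in intact plants (3.64 ± 0.99, adjusted *p* = 0.00469), a call lost when only these 2 groups were fitted (3.61, adjusted *p* = 0.0875). Caffeic acid *O*-methyltransferase (MA_10426580g0010) was at 1.33 ± 0.35, a call lost without intact replicate 2 and in the fit of these 2 groups alone (1.30, adjusted *p* = 0.145). Dirigent and lignan genes, which guide the coupling of phenolics, had 6 of 29 tested members higher and 1 lower (median 0.86). The share of rises was 20.7%, close to the 19.6% of described genes. Without scion replicate 1 the rises were 4 and the median was 0.66. The dirigent gene MA_10068901g0010 had 613, 599 and 813 reads in scion, against 191, 91.9 and 140 in intact plants (2.27 ± 0.22, adjusted *p* = 1.30e-10). Of 39 tested peroxidases, 16 were higher and 3 lower with a median of 1.31, which was 1.21 with genes lacking reads in a group set to their bound and 0.74 without scion replicate 1. Without that library 12 were higher and 4 lower. Peroxidase 4-like (MA_10430578g0010) had 27.1, 23.7 and 65.0 reads in scion, against 5.05, 0 and 0.87 in intact plants, and peroxidase 72-like (MA_10227622g0010) was lower at −2.47 ± 0.43.

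**Figure D3:**
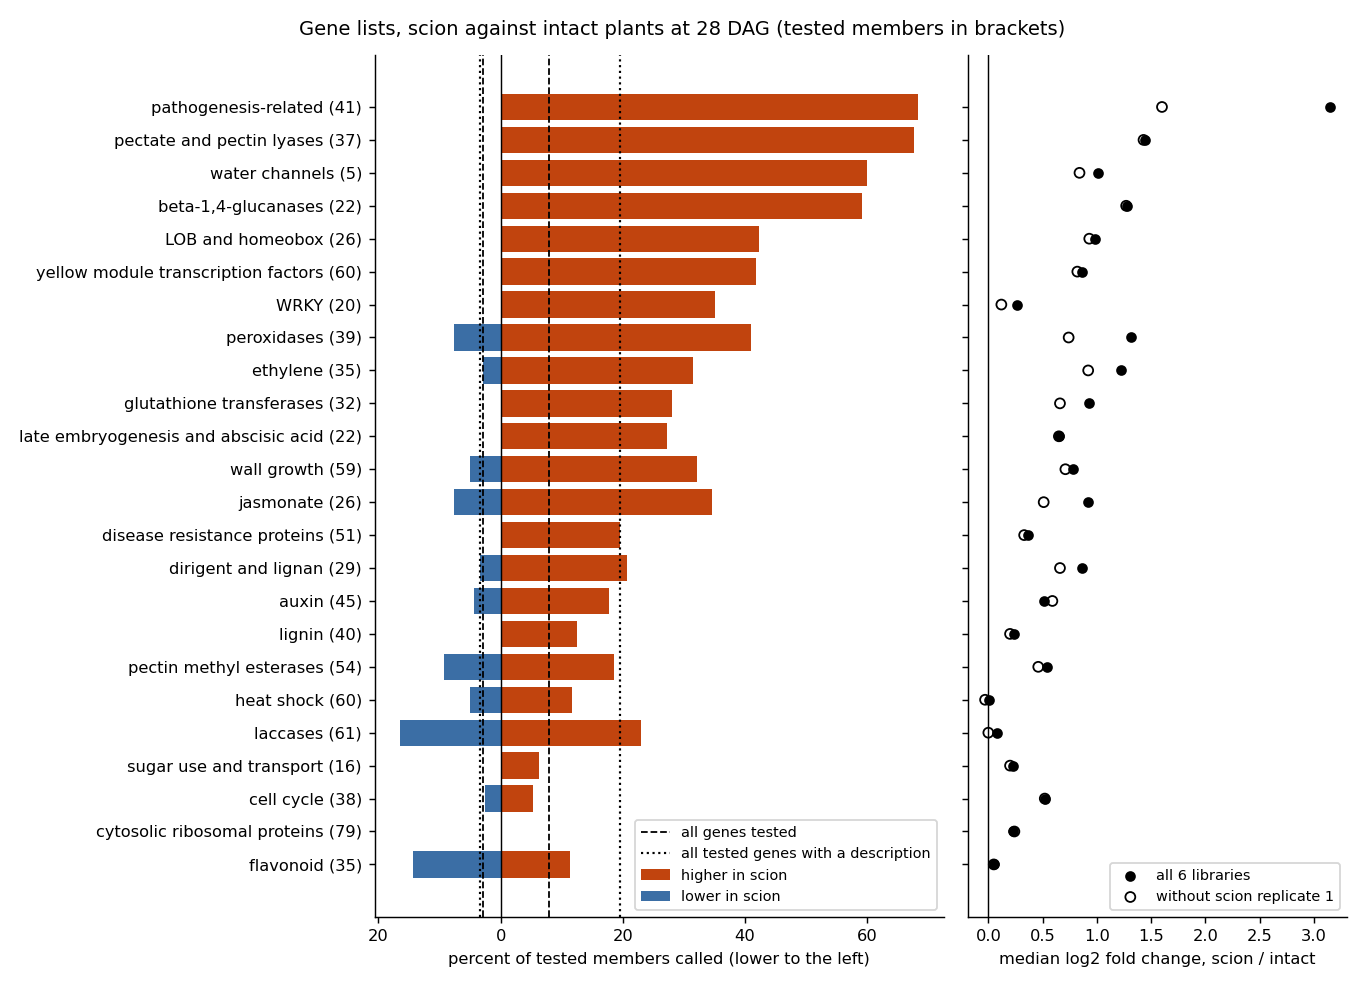
Left, the percentage of tested members of each list called higher (right of 0) or lower (left of 0) in scion than in intact plants at 28 DAG, with dashed lines for all tested genes (7.86% and 2.95%) and dotted lines for all tested genes with a description (19.6% and 3.38%). Right, the median log2 fold change of each list with all 6 libraries (filled) and without scion replicate 1 (open), which parts most for the pathogenesis-related list (3.15 and 1.60).

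Many pathogenesis-related genes were higher in scion. Of 41 tested pathogenesis-related genes (chitinases, which degrade fungal chitin, thaumatins and other PR proteins), 28 were higher and none lower, with a median of 3.15. These were all 7 tested thaumatins, 13 of 22 chitinases and 8 of 12 others, or 4, 9 and 4 without scion replicate 1. Summed over the list, scion libraries held 52456, 17638 and 11374 normalized reads, against 3331, 3302 and 6323 in intact plants. Every scion library lay above every intact one, with scion replicate 1 far above its partners. Without scion replicate 1, 17 passed and the median was 1.60, and 11 passed when only the scion and intact libraries of this day were fitted. Over all genes, that fit called 2376 of 34655 higher. The rootstock libraries of the same day held 139064, 14343 and 9966 reads, with replicate 1 again the highest. The part of this library in the rises was not tested beyond these values.

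Related lists followed in part. Of 26 tested jasmonate genes, 9 were higher and 2 lower (median 0.92, or 0.51 without scion replicate 1), and 6 of the 9 were TIFY genes, which encode repressors of jasmonate signalling. Without that library 7 jasmonate genes were higher, 5 of them TIFY genes. TIFY 10A (MA_10426545g0020) had 174, 92.6 and 103 reads in scion, against 40.4, 35.5 and 46.1 in intact plants (1.60 ± 0.27, adjusted *p* = 1.07e-05). Both falls were lipoxygenases, reduced to 1 or 0 in 4 of the single-library omissions, and 2 other lipoxygenases were higher, among them linoleate 9S-lipoxygenase 5 (MA_11043g0030) at 1.67 ± 0.21. Glutathione transferases, which conjugate reactive compounds, had 9 of 32 tested members higher and none lower, but 4 without scion replicate 1. The transferase MA_10426249g0010 had 201, 26 and 16 reads in scion, against 8.08, 4.55 and 9.57 in intact plants, and lost its call without that library (1.52, adjusted *p* = 0.304). The tau class member MA_213889g0010 had 34.1, 94.9 and 90.5 reads in scion, against 6.06, 2.73 and 11.3 in intact plants, and kept its call (3.74). Genes described as disease resistance proteins had 10 of 51 tested members higher, 19.6% and so no more than described genes in general, with a median of 0.37. WRKY factors had 7 of 20 higher with a median of 0.26, including *WRKY57* (MA_126273g0010) with 713, 715 and 781 reads in scion, against 274, 218 and 248 in intact plants (1.59 ± 0.15, adjusted *p* = 8.95e-11). Without scion replicate 1 the WRKY rises were 5 and the median was 0.12.

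**Figure D4:**
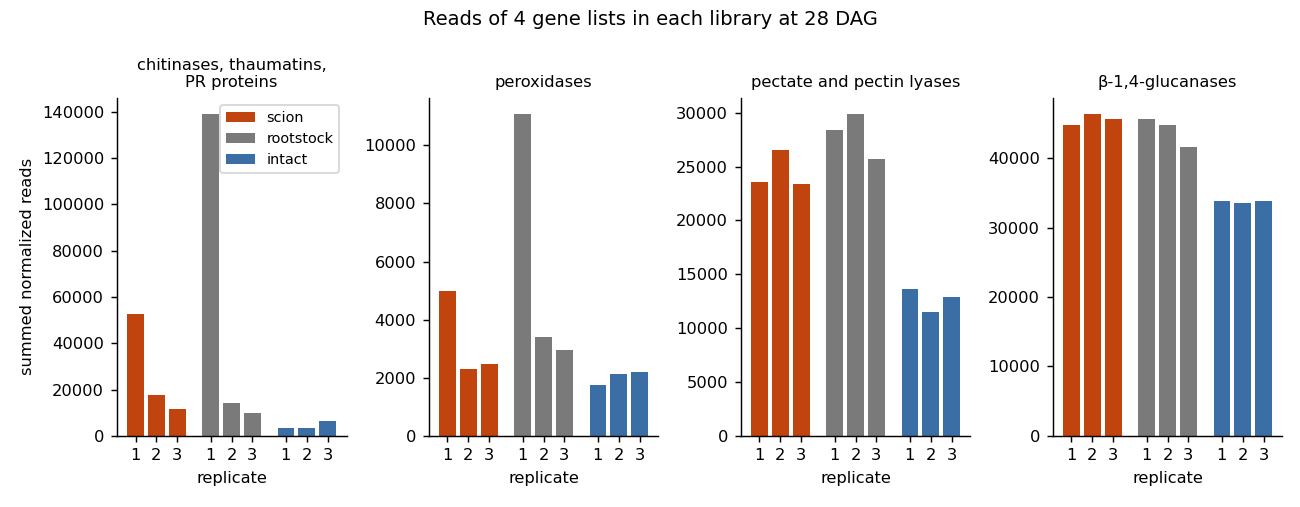
Summed normalized reads (y axis, linear, from 0) of 4 gene lists in each scion, rootstock and intact library at 28 DAG. The pathogenesis-related sum is 52456 in scion replicate 1 and 11374 to 17638 in the other scion libraries, against 3302 to 6323 in intact plants, while the sums of pectate and pectin lyases and of β-1,4-glucanases are even within each group.

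Of 26 tested LOB domain and homeobox factors, 11 were higher and none lower (median 0.98), all 26 were above 0, and the count was also 11 without scion replicate 1. LOB domain-containing 40-like (MA_75731g0010) had 809, 925 and 725 reads in scion, against 30.3, 25.5 and 26.1 in intact plants (4.92 ± 0.23, adjusted *p* = 7.28e-18). LOB domain-containing 11-like (MA_131805g0010) had 66.2, 33.7 and 91.6 reads in scion, against 1.01, 0 and 0 in intact plants. Transcription factors of the study's yellow module, which were chosen by the study on these samples and so are no independent evidence of direction, had 25 of 60 tested members higher and none lower (median 0.86). LOB domain-containing 40-like and the FER-like gene MA_10431811g0010 belong to that module, so the same limit holds for them.

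Hormone lists were mixed. Of 45 tested auxin genes, 8 were higher and 2 lower (median 0.51), and 7 were higher without scion replicate 1. The share of auxin rises was 17.8%, no more than the 19.6% of described genes in general. An indole-3-acetic acid-amido synthetase (MA_100975g0010), of the family that conjugates auxin to amino acids, had 2 reads in the scion libraries together and 173 in the intact libraries, an 86.6-fold difference with an exact binomial interval of 23.6 to 721. An auxin-induced 15A-like gene (MA_170671g0030) had 42.2, 64.3 and 35.1 reads in scion, against 2.02, 0 and 0.87 in intact plants. The ethylene keyword matched 35 tested genes, 11 higher and 1 lower (median 1.22, or 0.86 with genes lacking reads in a group set to their bound). Of these, 8 are furanone reductases caught by the word methylene, 2 of which are among the 11. Without scion replicate 1 the rises in the whole list were 8 and the median was 0.92. An ethylene-responsive factor 5-like gene (MA_27309g0010) had 81.3, 95.6 and 122 reads in scion, against 9.09, 6.37 and 15.7 in intact plants (3.24 ± 0.49, adjusted *p* = 3.05e-06). Late embryogenesis and abscisic acid genes had 6 of 22 higher and none lower (median 0.65), with dehydrin (MA_104214g0010), a protein of water deficit, at 349, 253 and 84.1 reads in scion, against 19.2, 28.2 and 43.5 in intact plants.

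Cell cycle, ribosomal and sugar lists had few calls. Of 38 tested cell cycle genes, 2 were higher and 1 lower (median 0.52), and 34 members were above 0. The rises were 5 without intact replicate 1, and 1 without intact replicate 3 or scion replicate 3, and the fall was lost in 3 of the single-library omissions. Histone H2B (MA_10436516g0010) was 1 of the 2, at 1.50 ± 0.26. None of 79 tested cytosolic ribosomal protein genes was called by edgeR or DESeq2 (median 0.23), while 45 were higher and 1 lower at an unadjusted *p* under 0.05. Heat shock genes had 7 of 60 higher and 3 lower (median 0.01), the 3 falls becoming 1 without intact replicate 3, yet 2 small heat shock genes of 1 scaffold stood out. Of these, MA_10427493g0010 had 94.3, 184 and 140 reads in scion, against 7.07, 2.73 and 6.09 in intact plants (4.72 ± 0.31, adjusted *p* = 4.52e-15). Sugar use and transport had 1 of 16 higher, *sugar transport 14-like* (MA_10427602g0010) at 1.10 ± 0.24, lost without scion replicate 3. Of 5 tested aquaporins (water channels), 3 were higher (median 1.01), led by PIP2-8 (MA_10426909g0020) with 213, 386 and 343 reads in scion, against 41.4, 28.2 and 12.2 in intact plants (3.55 ± 0.36, adjusted *p* = 7.31e-10). The call of aquaporin TIP1-1 was lost without scion replicate 2, and that of NIP1-1 without scion replicate 1, intact replicate 2 or intact replicate 3. Both were also lost when edgeR fitted only the scion and intact libraries of 28 DAG (adjusted *p* = 0.0753 and 0.134). DESeq2, RLE scaling and a fit without the low-count filter each removed the call of NIP1-1 as well. Flavonoid genes had 4 of 35 higher and 5 lower (14.3% lower, median 0.05), and 7 were higher without intact replicate 1. Their summed reads were 60332, 60370 and 55157 in scion and 80450, 31939 and 46172 in intact plants, where replicate 1 was the highest although it was the lowest for the genes that fell most.

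The same contrast on earlier days asked whether the difference at 28 DAG was a remnant of an earlier one. These comparisons use other libraries for both groups, and the percentage of genes with a description that were higher was 47.7% at 1 DAG and 29.9% at 14 DAG, with 7.93% and 4.56% lower. Of the 3021 genes higher at 28 DAG, 32.9%, 41.4%, 51.0% and 59.0% were also higher at 1, 3, 7 and 14 DAG, which are 22.7%, 33.2%, 37.3% and 42.1% of the genes higher on those days. Of the 1132 lower genes, 32.9%, 42.2%, 49.1% and 67.1% were also lower on those days (8.57%, 16.4%, 20% and 26.5% of each day's lower genes). On every day, 622 of the 3021 and 200 of the 1132 were called in the same direction, and 842 and 243 were called at 28 DAG alone. Of all tested genes, 11.4%, 9.82%, 10.8% and 11.0% were higher and 11.3%, 7.56%, 7.23% and 7.47% lower on the 4 earlier days. Not being called on a day does not show a difference between days, so this was tested directly.

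The scion/intact ratio was higher at 28 DAG than at 14 DAG in 1133 genes (2.95%) and lower in 1206 (3.14%), 6.09% in all, by the edgeR test of the difference between the 2 log2 fold changes. With library size alone as the scaling, these were 906 and 1645, as that scaling moved the median of all genes by −0.13. Of the 1239 genes higher at 28 DAG but not called higher at 14 DAG, 335 had a higher ratio at 28 DAG, and of the 2452 called higher at 14 DAG alone of the 2 days, 770 had a lower ratio. Where the ratio was higher, the scion mean had moved more than the intact mean between the days in 87.4% of genes. Where it was lower, the scion mean had moved more in 52.1% and the intact mean in 47.9%.

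Of the 16 named genes, 6 had a lower ratio at 28 DAG than at 14 DAG and none a higher one. Over all tested genes these shares were 3.14% and 2.95%. As the study picked the named genes largely by their response to grafting in these samples, this count is no independent evidence either. For *PaWIND1-like* the mean was 16.7 normalized reads in scion at 28 DAG and 81.1 at 14 DAG, against 16.5 and 4.04 in intact plants (−4.34 ± 1.23, adjusted *p* = 0.0132). For *PaLRP1-like*, scion means were 195 at 28 DAG and 252 at 14 DAG, and intact means 120 and 13.3, so that most of the change was in intact plants (−3.57 ± 0.38, adjusted *p* = 2.62e-08). *PaMYB4-like* likewise changed more in intact plants, with 186 and 248 reads in scion and 74.4 and 4.97 in intact plants (−4.30 ± 0.62, adjusted *p* = 6.68e-06). *PaCDKB2;2-like* had 503 and 984 reads in scion with 350 and 338 in intact plants (−1.05 ± 0.17, adjusted *p* = 2.41e-05), a change on the scion side. *PaPME5-like* (145 and 347 in scion, 134 and 131 in intact) and *PaWOX13-like* (59.8 and 109 in scion, 31.2 and 23.2 in intact) had differences of −1.32 ± 0.25 and −1.30 ± 0.34. *PaAPL-like* was at 1.21 ± 0.18 at 14 DAG and 1.34 ± 0.17 at 28 DAG, and the difference of 0.14 ± 0.25 did not pass (adjusted *p* = 0.795). *PaERF115-like* was at 8.16 ± 0.41 and 5.98 ± 0.32, a difference of −2.18 ± 0.96 that did not pass either (adjusted *p* = 0.128).

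**Figure D5:**
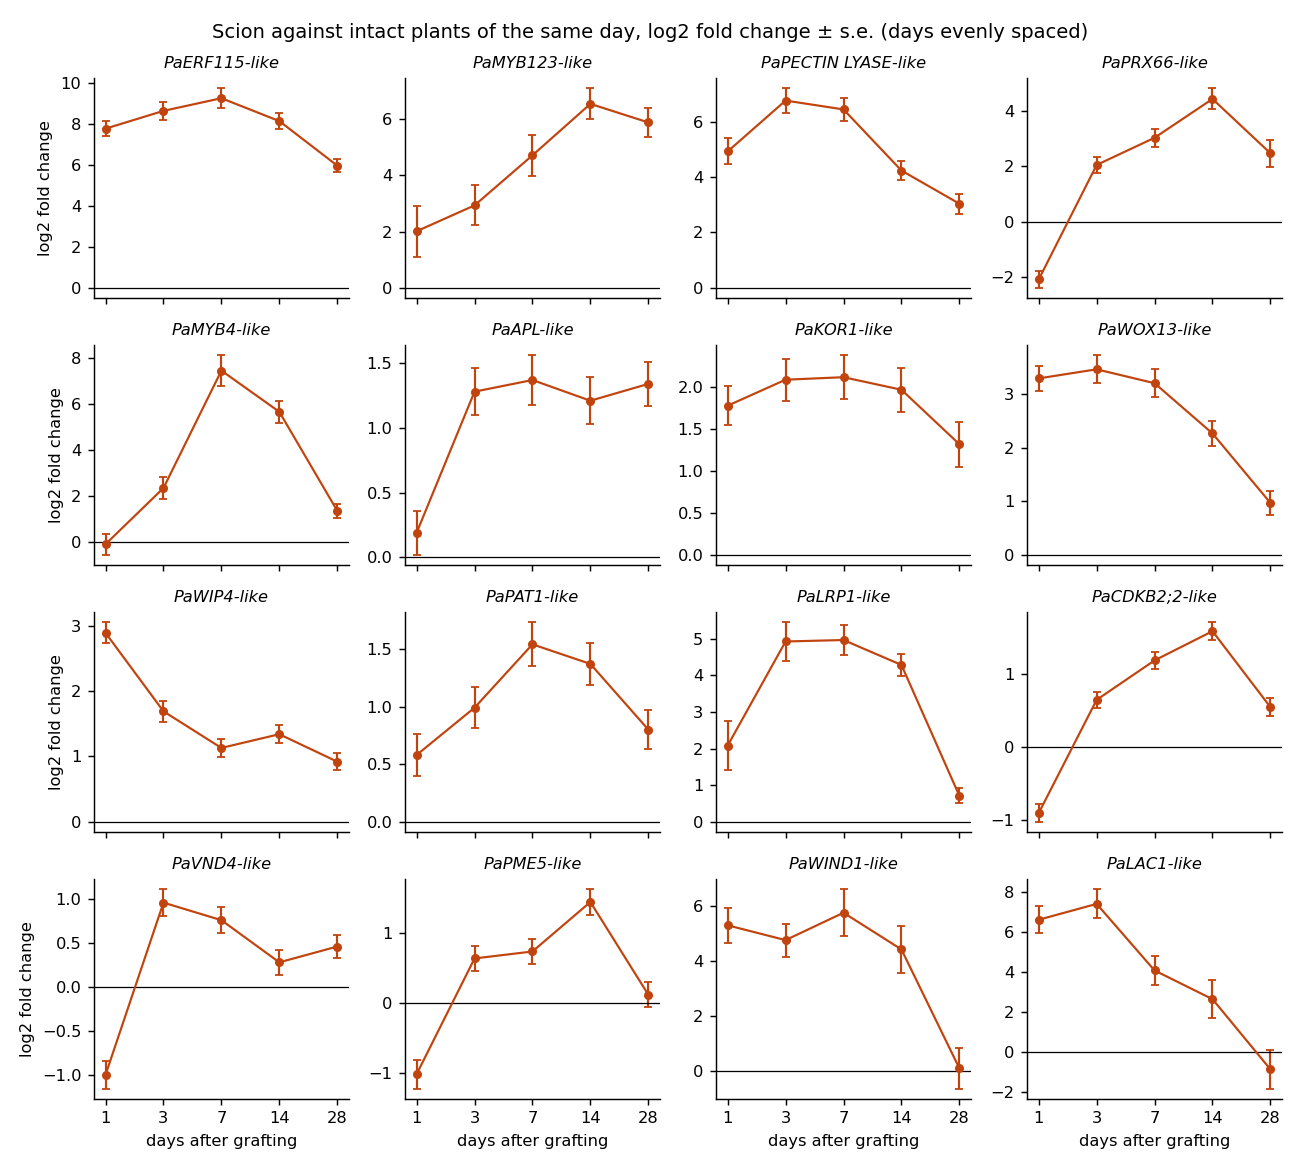
Log2 fold change of scion over intact plants of the same day (y axis, ± s.e.) at 1, 3, 7, 14 and 28 DAG (x axis, evenly spaced) for the 16 spruce genes with *Pa* names. *PaWIND1-like*, *PaLRP1-like* and *PaMYB4-like* drop to 0.09, 0.71 and 1.35 at 28 DAG, whereas *PaAPL-like* stays between 1.21 and 1.37 from 3 DAG on.

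Outside the named set, the largest gains since 14 DAG were in genes whose values were below 0 at 1 and 14 DAG. A GDSL esterase/lipase (MA_18439g0010) averaged 329 reads in scion at 28 DAG and 3.86 at 14 DAG, against 18.2 and 21.1 in intact plants (6.64 ± 0.89, adjusted *p* = 2.54e-06). A GTPase activating gene (MA_15689g0010) averaged 185 and 6.63 in scion, against 8.76 and 12.8 in intact plants (5.56 ± 0.88, adjusted *p* = 2.41e-05). *DOWNY MILDEW RESISTANCE 6* (MA_10432259g0010), which damps immunity in *Arabidopsis*, averaged 210 and 13.8 in scion, against 7.13 and 18.5 in intact plants (5.26 ± 0.72, adjusted *p* = 2.40e-06). In each of the 3, scion libraries at 28 DAG were all above the intact ones.

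The largest losses were in *WRKY31* (MA_175750g0010), a *PR10* gene (MA_224412g0010) and peroxidase 72-like (MA_140596g0010). *WRKY31* averaged 35.8 reads in scion at 28 DAG and 190 at 14 DAG, against 2.81 and 0 in intact plants. Its fitted difference of −6.98 ± 2.19 depends on the value assumed for an intact group without reads. The *PR10* gene averaged 622 and 1708 in scion, against 230 and 9.06 in intact plants (−6.11 ± 0.76, adjusted *p* = 1.17e-06). Its intact libraries at 28 DAG were uneven, at 478, 40.1 and 173. Peroxidase 72-like averaged 96.3 and 337 in scion, against 62.7 and 3.18 in intact plants (−6.04 ± 0.62, adjusted *p* = 2.62e-08). Among the lists, 18 of 35 flavonoid genes and 15 of 60 yellow module factors had a lower ratio at 28 DAG than at 14 DAG, and 2 and 0 a higher one. Of the genes with a description, 8.69% had a lower and 2.73% a higher ratio.

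Against 1 DAG, the ratio at 28 DAG was higher in 4596 genes (12%) and lower in 3380 (8.79%), 20.8% in all. Cytosolic ribosomal proteins had a lower ratio in 58 of 79, their median being 1.33 at 1 DAG and 0.23 at 28 DAG. Of 60 heat shock genes 23 had a lower ratio, and of 32 glutathione transferases 20. At 1 DAG, 76, 29 and 29 members of these lists had been called higher. Descriptions come mostly from genes that responded early or to hormones, so the choice of members favoured falls from 1 DAG. The counts are no independent evidence of direction, and no share over described genes was taken for this contrast. The patatins MA_10430702g0010 and MA_125844g0010 gained 11.37 ± 2.89 and 8.74 ± 1.96 (adjusted *p* = 0.00247 and 5.20e-04), with scion means of 0.28 and 1.43 at 1 DAG. The GDSL esterase/lipase MA_18439g0010 gained 9.09 ± 1.02. Fatty acyl reductase 2 (MA_10430156g0010) turned over: scion means were 22.2 at 28 DAG and 97.1 at 1 DAG, against 516 and 2.86 in intact plants (−9.65 ± 0.93, adjusted *p* = 2.76e-10). A cysteine-rich repeat secretory gene (MA_114182g0010), at 258 reads in scion at 1 DAG and listed without a read in intact plants of that day, had 1 read in scion and 2 in intact plants at 28 DAG (−11.79 ± 2.57, a fitted value). A tetraspanin-8-like gene (MA_10426935g0010) averaged 200 reads in scion at 1 DAG and had none at 28 DAG, when intact plants held 31, at least 10.3-fold lower in scion by the same floor (−7.90 ± 1.23 between the days).

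The scion was last set against the rootstock at 28 DAG, a contrast in which the intact libraries enter only the shared filter, scaling and estimate of spread. Both sides are from grafts of the same day, and the labels do not say whether libraries of the same number share their grafts. Only 15 genes were higher in scion (0.0390%) and 51 lower (0.133%) by edgeR, 0.172% in all. The counts rested on single libraries. Rises numbered 6, 2 and 30 without rootstock replicate 1, 2 and 3, and 8, 13 and 3 without scion replicate 1, 2 and 3. Falls numbered 9, 30 and 91 and then 29, 15 and 9 in the same order. Several of the genes that were lowest in scion against intact plants were intermediate in rootstock. DCR (MA_10429815g0020) had 717, 418 and 199 reads in rootstock, above all 3 scion libraries (−3.08 ± 0.45, adjusted *p* = 3.28e-04), fatty acyl reductase 2 (MA_10430156g0010) was at −2.72 ± 0.55 and flavonol synthase MA_10435737g0020 at −2.26 ± 0.52. *PaVND4-like*, with 462, 409 and 445 reads in rootstock, was 0.59 ± 0.14 higher in scion (adjusted *p* = 0.0343), under the fold threshold. Pectate lyase 8 (MA_956526g0010) was higher in scion at 1.19 ± 0.27, and pectate lyase 18 (MA_10205415g0010) lower at −1.43 ± 0.27. For *PaERF115-like*, the difference from rootstock was −0.31 ± 0.18 (adjusted *p* = 0.639).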

How the data were processed

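The authors deposited a table of whole-number read counts per gene model. Per the study's methods, stranded poly(A) libraries were sequenced paired-end, filtered with SortMeRNA and fastp, aligned to the spruce genome with STAR and counted with HTSeq on the reverse strand. The counts are not normalized. The 48 libraries of 16 groups were fitted together in edgeR 4.0.16 (R 4.3.3) with TMM scaling, robust quasi-likelihood tests and Benjamini–Hochberg adjustment over 38436 of 70736 gene models that passed filterByExpr (minimum count 10). Genes were called where the adjusted *p* was under 0.05 and the change was larger than 1 on the log2 scale, up or down. Standard errors were taken as the size of the change divided by the root of its *F* statistic and can be too small where reads are few. Normalized reads are counts divided by DESeq2 1.42.0 size factors. On simulated counts edgeR found all 200 genes built in with a log2 change of 2, with 3 wrong calls. The built-in genes were drawn from well-read ones, and the simulated spread followed a set formula with no library standing apart. The simulation therefore cannot speak for calls in genes with few or uneven reads.

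Named were the 16 genes with *Pa* names, the 10 largest called rises and falls with a description, a mean of at least 50 normalized reads and groups that do not overlap, the 2 largest of all genes each way, the 3 largest called of each list with a mean of at least 20, and the 3 largest differences between days each way. Lists of 24 gene classes came from the study's tables. Members and lists were chosen with earlier results of these data known. Alternatives were DESeq2, other scalings and filters, a replicate block, a fit of only the groups compared and the omission of each library. Scion and rootstock libraries of the same number deviated together (correlations of deviations 0.40, 0.23 and 0.29), but scion and intact libraries did not. Whether such scion and rootstock libraries share grafts is not in the labels. The main test between them was unpaired, and the replicate block also spanned the intact libraries. Replicates are separate pools by their labels. Intervals cover counting error only.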

Additional observations from a re-analysis of the deposited data

Results flagged for a closer look

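The difference between scion and intact plants was itself different between days in many genes. It was higher at 28 DAG than at 14 DAG in 1133 genes and lower in 1206, and higher at 28 DAG than at 1 DAG in 4596 and lower in 3380. Among the spruce genes named in the study, the values against 14 DAG were −1.05 for *PaCDKB2;2-like*, −1.30 for *PaWOX13-like*, −4.34 for *PaWIND1-like*, −3.57 for *PaLRP1-like*, −4.30 for *PaMYB4-like* and −1.32 for *PaPME5-like*.

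Further genes with a large difference from 14 DAG were MA_18439g0010 (GDSL esterase/lipase) at 6.64, MA_15689g0010 (GTPase activating) at 5.56, MA_10432259g0010 (*DOWNY MILDEW RESISTANCE 6*) at 5.26, MA_175750g0010 (*WRKY31*) at −6.98, MA_224412g0010 (*PR10*) at −6.11 and MA_140596g0010 (peroxidase 72-like) at −6.04. Against 1 DAG the values were 11.37 for MA_10430702g0010 and 8.74 for MA_125844g0010 (patatins), 9.09 for MA_18439g0010, −11.79 for MA_114182g0010 (cysteine-rich repeat secretory), −9.65 for MA_10430156g0010 (fatty acyl reductase 2) and −7.90 for MA_10426935g0010 (tetraspanin-8-like). All of these passed the edgeR test of the difference between days.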

How the results depend on the processing

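The counts of genes higher and lower in scion than in intact plants stayed at 2376 to 3196 and 964 to 1232 over all alternatives. With the replicate block they were 3071 and 1130, although scion and intact libraries of the same number did not deviate together (−0.03, 0.00 and −0.03). In the comparison with rootstock, DESeq2 called 91 genes lower, and leaving out 1 library gave 2 to 30 genes higher and 9 to 91 lower, while the block gave 15 and 51. The count of differences from 14 DAG was 918 to 1334 higher and 909 to 1372 lower without 1 library, and 48.4% of its calls were higher, against 35.5% with library size alone. Against 1 DAG the ranges were 4181 to 4642 and 3169 to 3786. The sign turned in low or near-zero values without 1 library: *PaAPL-like* against 14 DAG (−0.01 to 0.24), *PaWIND1-like* (−0.33 to 1.16), *PaLAC1-like* (−1.39 to 0.33), *PaMYB123-like* against 14 DAG (−1.51 to 0.60) and MA_114182g0010 (−2.60 to 1.83). The cause was not tested. Of 98 named genes 87 were called, of which 13 lost the call without some library, 6 of them without scion replicate 1, and 14 under another setting, 13 of these when only the groups compared were fitted. Pools of 5 plants with 3 replicates limit all values, and counts of a few reads give ratios with wide intervals.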
